A study of Mus musculus with 12 samples.

Results

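The genotype difference in the interferon-gamma (IFN-γ) response was measured in mouse bone marrow-derived macrophages, which are macrophages grown in culture from marrow precursors. It is the log2 response to IFN-γ in cells labelled CKO minus that in cells labelled WT, so a value of 1 means that IFN-γ changed a gene 2-fold more upward, or less downward, in CKO. The members are 8 of the 12 RNA-seq libraries of the series: untreated WT, WT given 100 U/mL IFN-γ for 24 h, untreated CKO, and CKO given the same dose for the same time, with 2 libraries in each group. The other 4 libraries, WT and CKO given IL-4, entered the count filter, the scaling and the estimate of the spread, but no comparison. The labels do not spell out CKO, the deleted gene, the allele or any Cre driver; a transcription factor, IRF8, appears in the title of the series. Separate mice are not stated for the 2 libraries of a group, so the p-values rest on a spread that may be technical. Of 48440 genes in the deposited count table, 16292 had enough counts to be tested.

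IFN-γ is a cytokine of T cells and natural killer cells. It binds the receptor IFNGR1/IFNGR2, the kinases JAK1 and JAK2 carry the signal onward, and a first wave of genes, among them Irf1, is switched on through the gamma-activated sequence (GAS). IRF factors then act on the interferon-stimulated response element (ISRE), the main element of antiviral genes, and IRF8 pairs with ETS factors at composite elements in macrophages. The response arms the macrophage with guanylate-binding proteins, immune GTPases, antigen presentation, nitric oxide and chemokines. It also lowers many genes of the resting cell, among them those of cholesterol synthesis.

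The 8 libraries held 24668799 to 32717379 counts each. Levels below are library-scaled counts (CPM, per 1e6 counts) given in the order library 1 and library 2 of a group, and log2 differences carry an approximate standard error (SE) from edgeR. Untreated CKO library 1 stood apart from the other 11, with 1.52% of its counts in mitochondrial genes against 2.12% to 3.25%. Macrophage identity genes were present throughout. The 24 tested members of that list summed to 42727 and 42554 CPM in untreated WT and 31434 and 33059 in WT given IFN-γ. In CKO they summed to 31021 and 27371 CPM untreated and 26101 and 25498 with IFN-γ. The sum was thus lower in all CKO than in all WT libraries and fell with IFN-γ in both. The transcript of Irf8, the factor named in the title, was at 90.9 and 91.2 CPM in untreated WT, 513 and 502 in WT given IFN-γ, 293 and 248 in untreated CKO, and 1204 and 1173 in CKO given IFN-γ. It was present in all CKO libraries and higher there than in the WT libraries of the same state, untreated or given IFN-γ. These totals span the gene, so whether part of it is deleted cannot be read from them, and CKO below means the libraries labelled CKO. IFN-γ raised Irf8 in both genotypes, and the difference between the responses did not pass the test (log2 −0.34 ± 0.16 SE, edgeR adjusted p = 0.394). Lyz2, the lysozyme gene, lay at 5845 CPM or more in the 4 WT libraries and at 28 CPM or less in the 4 CKO libraries, yet its responses to IFN-γ were −0.94 and −0.92 on the log2 scale.

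The responses of the genotypes were alike in outline. IFN-γ raised 2018 genes and lowered 1917 in WT (24.2% of the genes tested), and raised 2396 and lowered 1937 in CKO (26.6%). Across the 16292 genes, which are not independent replicates, the WT and CKO responses had a Pearson r of 0.83 and standard deviations of 1.10 and 1.11. The interaction passed edgeR's test at an adjusted p under 0.05 in 443 genes, 2.72% of those tested. Of these, 337 had the higher response in CKO (2.07%) and 106 the lower (0.651%), and the median over all genes tested was 0.02. In each of the 443, the 4 possible CKO responses (1 treated against 1 untreated library) lay apart from the 4 possible WT responses, which held for 26.8% of all genes tested. Cells given IFN-γ are called treated below. Leaving out 1 library gave 189 or 230 calls (untreated WT library 1 or 2), 269 or 226 (treated WT 1 or 2), 374 or 940 (untreated CKO 1 or 2) and 168 or 137 (treated CKO 1 or 2). Each of the 443 differences kept its sign in all 8 of these fits. The call itself held in all 8 fits for 112 genes (0.687%), and the genes described with full values below are from these unless a library is named. A gene said to pass only without certain libraries passed with all libraries in the fit, and among the 8 reduced fits only in those.

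The 443 genes fell into 5 classes by comparing the size and sign of the responses. A response was stronger or weaker in CKO by its size on the log2 scale, and reversed where both responses passed their own test in opposite directions. Stronger induction held 166 genes (1.02% of those tested) and weaker repression 138 (0.847%), the classes with the more upward response in CKO. Weaker induction held 67 genes (0.411%), stronger repression 32 (0.196%) and reversal 40 (0.246%), of which 33 fell in WT and rose in CKO and 7 did the opposite. Reversal asks that both responses pass; by fitted sign alone, 173 of the 443 had responses in opposite directions. Among the 166 stronger inductions, both responses passed their own test in 81, and the CKO response alone did in 85. Among the 138 weaker repressions, both passed in 48, and the WT response alone in 90. For 424 of the 443, the class was the same when responses were measured as differences in CPM in place of log2 ratios.

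**Figure D1:**
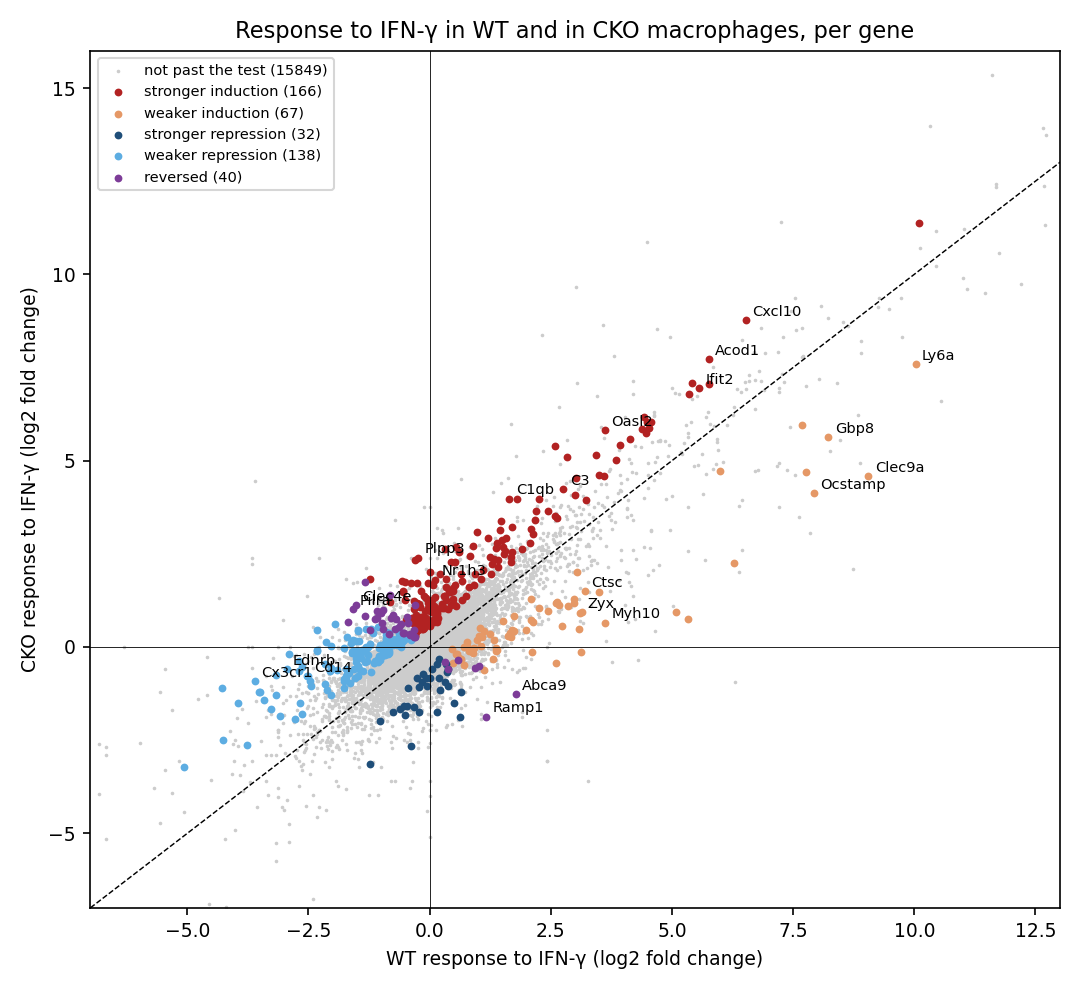
Log2 response to IFN-γ in WT (horizontal) against that in CKO (vertical), 1 point per gene, for the genes tested. Coloured points are the 443 genes past the interaction test by class, the dashed line marks equal responses, and most coloured points (337) lie above it.

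The genotypes differed already without IFN-γ in some of these genes and only after it in others. Over all genes tested, 8.6% were higher and 9.37% lower in untreated CKO than in untreated WT, and 10.4% were higher and 8.01% lower after IFN-γ. The CKO against WT difference passed its own test in untreated cells alone for 102 of the 443, after IFN-γ alone for 226, in both states for 113 and in neither for 2. These are the same 8 libraries arranged another way, not a second test. In the stronger inductions the median genotype difference was −0.34 before and 0.71 after IFN-γ on the log2 scale. In the weaker inductions it went from 0.33 to −0.96. Among the 113 genes that differed in both states, the difference had opposite signs before and after in 60.

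**Figure D2:**
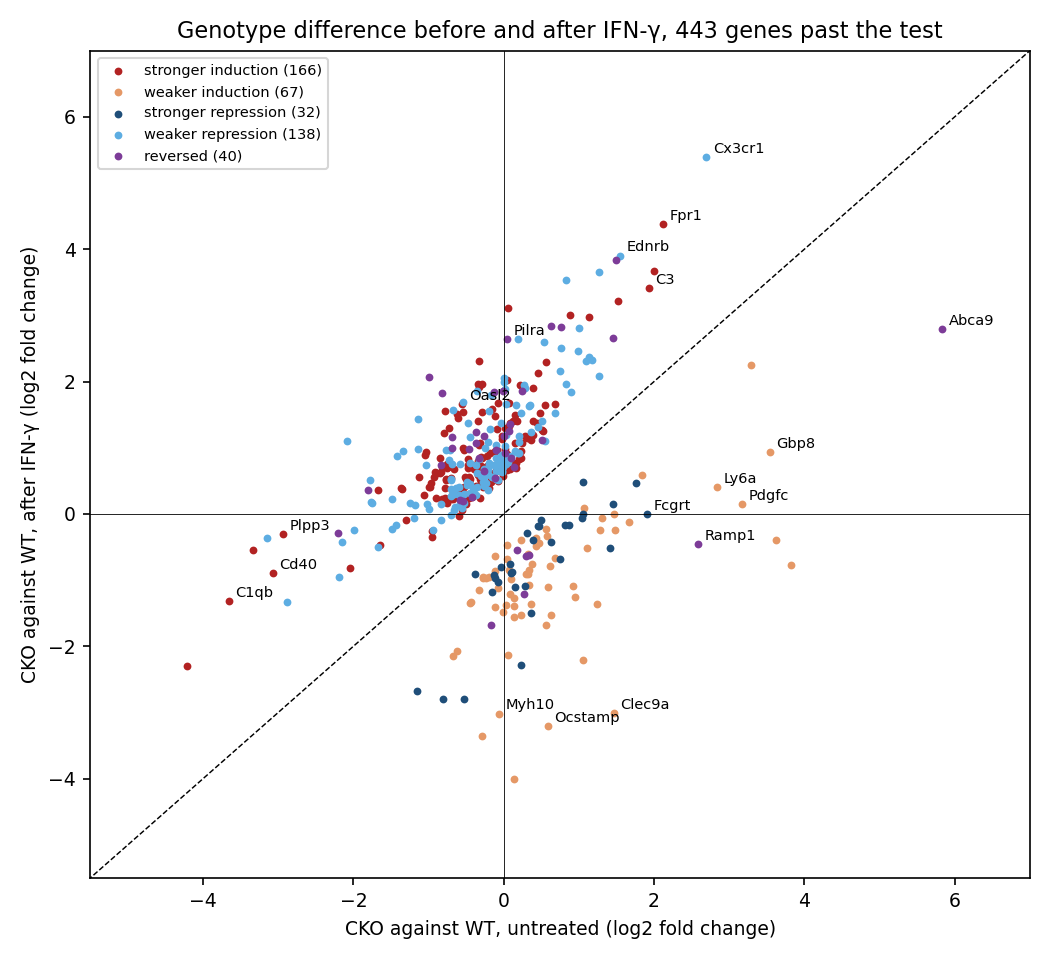
Log2 level in CKO against WT in untreated cells (horizontal) and after IFN-γ (vertical), 1 point per gene past the interaction test, coloured by class. The dashed line marks an unchanged genotype difference, and the distance from it is the interaction; C1qb and Cd40 lie at the left, lower in untreated CKO, and Clec9a, Ocstamp and Myh10 at the bottom, lower in CKO after IFN-γ.

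Among antiviral interferon-stimulated genes, many were raised further in CKO. Of 44 tested members, 16 passed the interaction test, each as a stronger induction, beside 1.02% of all genes tested. An interaction above 0 was found in 43 of the 44. Their median response was 2.51 in WT and 2.94 in CKO on the log2 scale, and the median interaction was 0.76 against 0.02 over all genes. The number past the test was 6 without either treated CKO library, 7 without untreated WT library 1, 9 without either treated WT library and 11 to 14 without any of the others. In untreated cells 6 of the 44 were higher and 4 lower in CKO, and after IFN-γ 30 were higher and 2 lower. The 6 that passed in all 8 fits were Oasl2, Ifit2, Oas1a, Bst2, Isg15 and Oas1g. Oas1a and Oas1g belong to a family of similar copies, so reads may be divided between them.

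Oasl2 (chromosome 5, 114896936 to 114912234, plus strand, GRCm38) encodes a protein related to the enzymes that sense double-stranded RNA. It was at 8.14 and 6.65 CPM in untreated WT and 5.12 and 4.99 in untreated CKO, and at 86.2 and 94.4 in WT and 289 and 283 in CKO given IFN-γ. Both genotypes gained it, and CKO, the lower group before treatment, ended as the higher one. IFN-γ raised Oasl2 12.2-fold in WT and 56.6-fold in CKO (interaction 2.21 ± 0.19 SE, edgeR adjusted p = 0.000246). Ifit2 (chromosome 19, 34550694 to 34576419, plus strand), whose product binds viral RNA, went from 10.3 and 7.91 CPM to 411 and 449 in WT. In CKO it went from 8.96 and 8.1 CPM to 1074 and 1019. The untreated groups overlapped and the treated groups did not (interaction 1.38 ± 0.21 SE, edgeR adjusted p = 0.00555). Bst2, which tethers budding virus to the cell surface, had an interaction of 0.92 ± 0.14 SE (edgeR adjusted p = 0.00526), and Oas1a one of 1.17 ± 0.16 SE (edgeR adjusted p = 0.00338).

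Promoter sequence is shown for 4 stronger inductions chosen because they hold a GAS or ISRE match, as letters known from genes that answer to interferons. Each line gives the 250 bases before the transcription start, 5′ to 3′ on the gene's strand, from RefSeq on GRCm38.p6, with matches in capitals. The motifs searched on both strands were GAS as TTCNNNGAA, ISRE as GAAA, any 2 bases and GAAA, and an ETS-IRF composite as GGAA, any 2 bases and GAAA. In Igtp the GAS, at 45 bases before the start, runs into the composite match at 40 and the ISRE at 34, and the capitals mark all of them. Ifit2 has a GAS at 241, Cxcl10 (chr5:92348890-92349139, minus strand) an ISRE at 213, and Ddx60 (chr8:61927837-61928086, plus strand) ISREs at 53 and 19. Ifit2 is chr19:34550444-34550693 and Igtp chr11:58199306-58199555, both on the plus strand. Another Ifit2 window, chr19:34550838-34551087, is not shown and holds no match.
Ifit2: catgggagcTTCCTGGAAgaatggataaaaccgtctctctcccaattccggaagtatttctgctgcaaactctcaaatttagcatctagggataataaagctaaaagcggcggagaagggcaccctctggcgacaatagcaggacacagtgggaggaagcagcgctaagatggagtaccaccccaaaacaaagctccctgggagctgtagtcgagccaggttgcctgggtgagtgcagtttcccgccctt
Igtp: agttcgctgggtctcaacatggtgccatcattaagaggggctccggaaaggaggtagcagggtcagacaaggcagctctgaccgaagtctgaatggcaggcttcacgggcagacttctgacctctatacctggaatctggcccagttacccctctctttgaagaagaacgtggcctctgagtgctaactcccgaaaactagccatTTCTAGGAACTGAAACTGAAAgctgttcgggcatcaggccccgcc
Cxcl10: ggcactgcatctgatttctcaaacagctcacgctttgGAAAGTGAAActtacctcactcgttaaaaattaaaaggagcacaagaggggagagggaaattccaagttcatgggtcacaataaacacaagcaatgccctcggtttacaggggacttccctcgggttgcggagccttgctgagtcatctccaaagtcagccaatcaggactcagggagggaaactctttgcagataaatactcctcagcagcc
Ddx60: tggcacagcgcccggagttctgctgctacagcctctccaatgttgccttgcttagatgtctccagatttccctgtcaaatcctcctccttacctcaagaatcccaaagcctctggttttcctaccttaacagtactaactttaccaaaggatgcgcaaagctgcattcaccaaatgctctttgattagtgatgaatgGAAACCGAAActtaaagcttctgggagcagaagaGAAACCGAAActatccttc

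The ISRE stood in 15 of 148 promoters of stronger inductions (10.1%) and in 2 of 62 of weaker inductions (3.23%). Over all 32851 promoters of the table the share was 2.98%, over 12556 promoters of genes tested 2.85%, and over 1791 promoters of genes raised by IFN-γ in WT 7.04%. The GAS stood in 15 of 148 promoters of stronger inductions (10.1%) and 5 of 62 of weaker inductions (8.06%), against 7.02% of all promoters. The ETS-IRF letters stood in 6 of 148 (4.05%) and 1 of 62 (1.61%), against 2.30% of all promoters. Among genes raised by IFN-γ in WT the shares were 7.37% for the GAS and 3.18% for the ETS-IRF letters. Promoters of reversed genes held the ISRE in 3 of 35 (8.57%), the ETS-IRF letters in 2 (5.71%) and the GAS in none. In stronger repression the ISRE stood in 0 of 34 and in weaker repression in 3 of 137 (2.19%). A gene with several start sites counts once per promoter, motifs overlap in part, and a match is a description of letters in this window.

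Cxcl10, the chemokine that draws T cells through CXCR3, was at 0.594 and 0.409 CPM in untreated WT and 0.455 and 0.375 in untreated CKO. It reached 36.9 and 55.8 CPM in WT and 183 and 180 in CKO given IFN-γ, so the treated groups stood well apart. Its interaction was 2.25 ± 0.52 SE (edgeR adjusted p = 0.0453), but it passed the test in 2 of 8 fits that left out a library. Without treated WT library 1 or 2 the edgeR adjusted p was 0.0437 and 0.0152, and in the other fits, each without 1 untreated or 1 treated CKO library, it lay between 0.0935 and 0.291. Ddx60, a helicase linked to viral RNA sensing, showed 135 and 127 CPM in treated CKO against 15.2 and 17.4 in treated WT. Its untreated CKO libraries differed, at 20.7 and 10.2 CPM, and untreated WT held 8.18 and 8.46. The interaction of Ddx60 was 2.12 ± 0.44 SE (edgeR adjusted p = 0.0343); it passed only without untreated CKO library 1 (2.69) or 2 (1.67), and the adjusted p was 0.106 to 0.136 without any other library.

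Most genes of the upstream pathway showed no difference of response past the test. Ifngr1, Ifngr2, Jak1, Jak2, Irf1, Socs1 and Ciita did not pass the interaction test, with edgeR adjusted p from 0.282 to 0.892. Ifngr1, the ligand-binding receptor chain, lay at 88.2 and 87.3 CPM in untreated WT, 72.9 and 76.9 in treated WT, 182 and 134 in untreated CKO, and 125 and 119 in treated CKO, higher in CKO in either state. Irf1, an early gene of the response, rose to 1023 and 1035 CPM in WT and 1196 and 1174 in CKO. Its log2 responses were 5.54 in WT and 4.88 in CKO (interaction −0.65 ± 0.28 SE, edgeR adjusted p = 0.342). In untreated cells it was higher in CKO, by 0.86 on the log2 scale (edgeR adjusted p = 0.0163). Of 26 tested genes of IFN-γ signalling, 2 passed, both as stronger inductions and Irf7 among them, and the median interaction was 0.00. Over all genes tested 2.72% passed.

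Irf7, which amplifies type I interferon, was at 56.7 and 68.2 CPM in treated WT and 203 and 193 in treated CKO (interaction 0.99 ± 0.17 SE, edgeR adjusted p = 0.0112). It missed the threshold without untreated WT library 1 (edgeR adjusted p = 0.0668) or treated CKO library 1 (edgeR adjusted p = 0.0812).

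Guanylate-binding proteins and immunity-related GTPases, which attack the vacuoles of intracellular microbes, moved both ways. All 19 tested members rose in both genotypes, 3 were raised more in CKO and 2 less. Over all genes tested, 2.07% had the higher and 0.651% the lower response in CKO. The median interaction of the 19 was −0.22, but 0.25 without untreated WT library 2 and 0.01 without untreated CKO library 1, so the sign of the median rested on these libraries. Igtp (chromosome 11, 58199556 to 58207591, plus strand), also called Irgm3, was at 8.07 and 8.19 CPM in untreated WT and 8.88 and 7.64 in untreated CKO. It reached 419 and 472 CPM in WT and 1090 and 1106 in CKO, a 54.7-fold and a 133-fold gain (interaction 1.28 ± 0.15 SE, edgeR adjusted p = 0.00111). Gvin1, a giant GTPase, had an interaction of 1.47 and passed only without untreated WT library 2 or either untreated CKO library. Tgtp1 had one of 1.29 and passed only without treated WT library 2.

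Gbp8 and Ly6a were weaker inductions only as ratios. Gbp8 (chromosome 5, 105014150 to 105139540, minus strand) was at 0.909 and 0.682 CPM in untreated WT and 11.6 and 7.21 in untreated CKO, and at 247 and 232 in WT and 472 and 447 in CKO given IFN-γ. CKO held more of it in both states. The rise was 300-fold in WT and 49.2-fold in CKO (interaction −2.61 ± 0.30 SE, edgeR adjusted p = 0.00118), while the gain in CPM was larger in CKO. Ly6a, the surface protein Sca-1, went from 0.839 and 0.853 CPM to 793 and 983 in WT and from 6.22 and 5.97 to 1148 and 1198 in CKO (interaction −2.44 ± 0.21 SE, edgeR adjusted p = 0.00024). Again the CKO libraries were the higher ones before and after, and the gain in CPM was larger there. Gbp9 had the same pattern, with an interaction of −1.25, and passed only without treated WT library 1 or either untreated CKO library. Gbp8 and Gbp9, like Ly6a, belong to families of similar copies, whose reads the counting may divide.

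Of 23 tested genes for presenting antigen on MHC class I, 3 passed as stronger inductions, and only Psmb8 did in all 8 fits. Over all genes tested 1.02% were stronger inductions. Among the 23, the median interaction was 0.29, and 21 were above 0. Psmb8, a subunit of the immunoproteasome that cuts peptides for class I, went from 74.1 and 71.1 CPM to 437 and 437 in WT. In CKO it went from 52.8 and 48.2 CPM to 576 and 582 (interaction 0.93 ± 0.12 SE, edgeR adjusted p = 0.00232). CKO was thus below WT before and above it after. Psme2, a proteasome activator, and Erap1, which trims peptides, had interactions of 0.71 and 0.59. Both passed without treated WT library 2 or untreated CKO library 2, Erap1 also without untreated CKO library 1, and neither without any other library. MHC class II held no gene past the test among 15, with medians of 3.18 in WT and 3.07 in CKO.

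**Figure D3:**
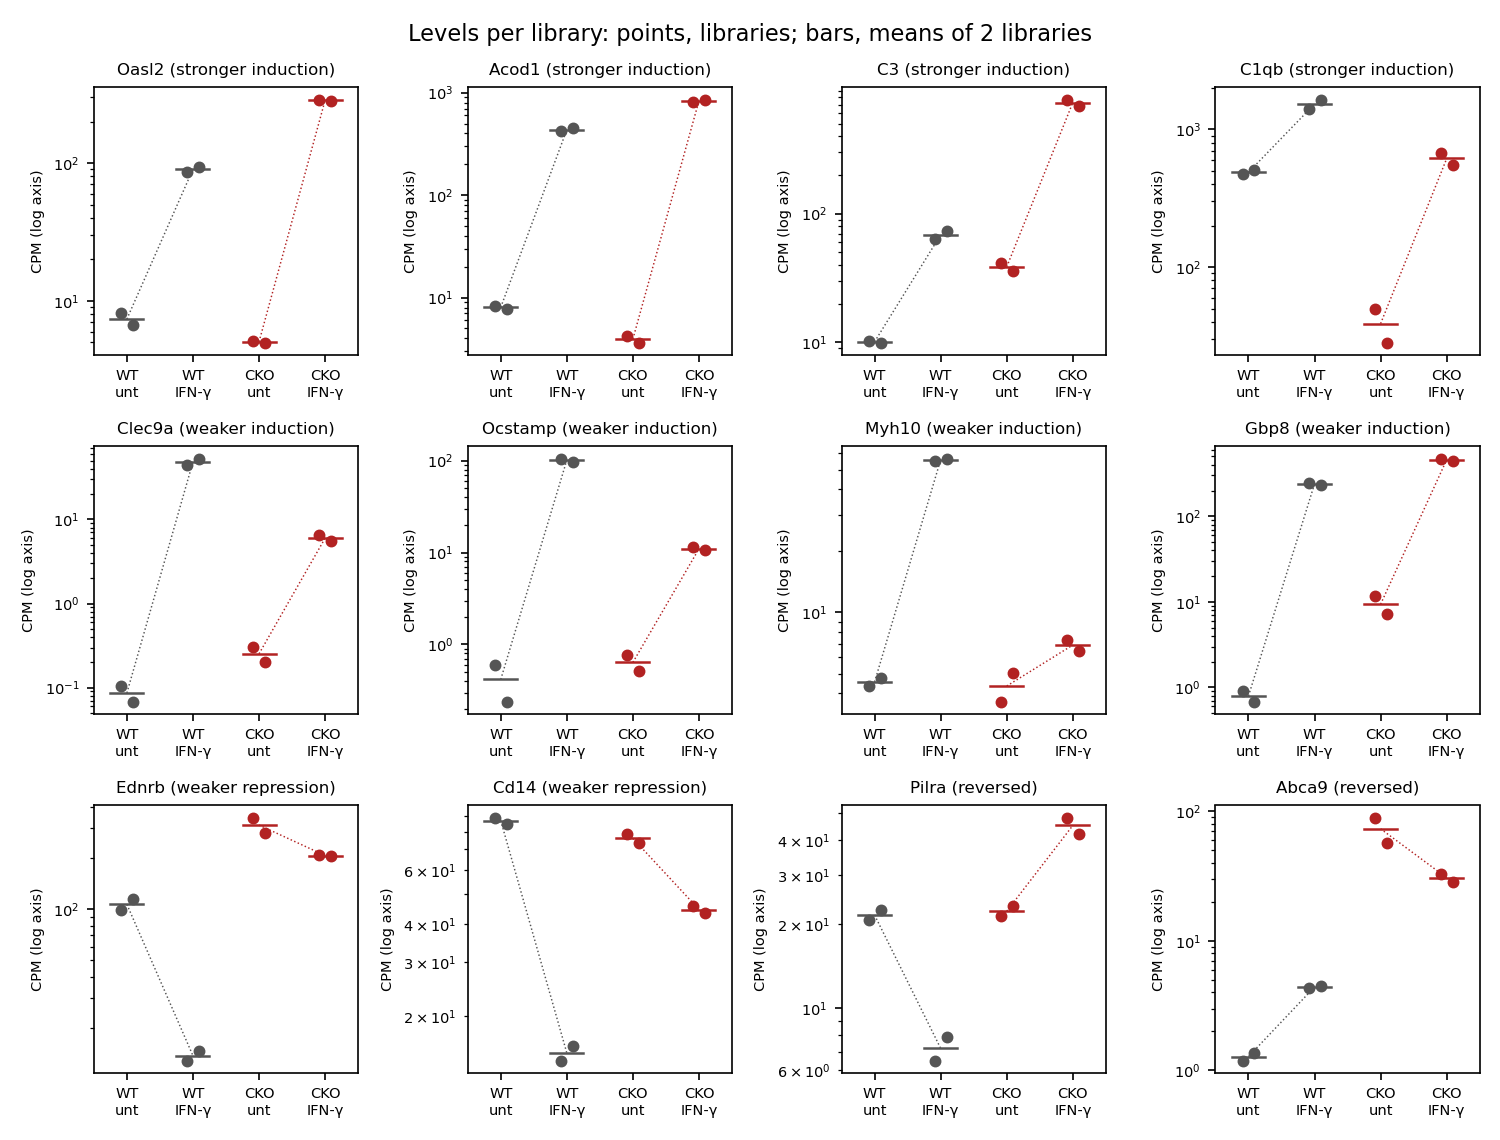
Level of 12 genes in each library (CPM, log axis) in untreated (unt) and IFN-γ-treated WT and CKO, with bars at the mean of 2 libraries and dotted lines joining the states of a genotype. Oasl2, Acod1, C3 and C1qb climb more steeply in CKO, Clec9a, Ocstamp, Myh10 and Gbp8 less steeply, Ednrb and Cd14 fall less, and Pilra and Abca9 move in opposite directions.

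Of 17 tested complement genes, 5 passed, each as a stronger induction, beside 1.02% of all genes tested. The median interaction was 0.82, and 3 of the 17 were below 0. The number was 3 without untreated WT library 1 or either treated CKO library, and 4 to 6 without any of the others. C3 (chromosome 17, 57203970 to 57228136, minus strand), the central component of the cascade, was at 10.3 and 9.96 CPM in untreated WT, 63.2 and 73.9 in treated WT, 41.4 and 35.9 in untreated CKO, and 768 and 691 in treated CKO. CKO exceeded WT in either state and the gap widened, with a 6.78-fold rise in WT and an 18.9-fold rise in CKO (interaction 1.48 ± 0.16 SE, edgeR adjusted p = 0.000726). C1qb (chromosome 4, 136880129 to 136886187, minus strand), a chain of the recognition molecule C1q, was the reverse case. It was at 472 and 503 CPM in untreated WT, 1410 and 1641 in treated WT, 49.5 and 28.3 in untreated CKO, and 675 and 553 in treated CKO. All CKO libraries stayed below all treated WT libraries, so the stronger induction as a ratio (interaction 2.34 ± 0.32 SE, edgeR adjusted p = 0.00356) was a smaller gain in CPM. C1ra, the protease of the same complex, had an interaction of 1.70 ± 0.24 SE (edgeR adjusted p = 0.00352). C1qa, another chain of C1q, had an interaction of 1.91 and passed only without untreated CKO library 1. C3ar1, the receptor for a C3 fragment, had one of 0.79 and was lost without untreated WT library 1 or either treated CKO library.

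Microbicidal genes gave 5 of 17 past the test, all with the higher response in CKO, and Acod1, Sod2 and Gch1 passed in all 8 fits. These 3 were the whole count without untreated WT library 1, treated WT library 1, untreated CKO library 1 or either treated CKO library. Of all genes tested, 2.07% passed with the higher response in CKO. Acod1 (chromosome 14, 103046977 to 103056573, plus strand) makes itaconate, an antimicrobial metabolite. It rose from 8.25 and 7.81 CPM to 422 and 447 in WT and from 4.25 and 3.63 to 816 and 855 in CKO. CKO started at the lower and ended at the higher level, with a 54.1-fold rise in WT and a 213-fold rise in CKO (interaction 1.97 ± 0.20 SE, edgeR adjusted p = 0.000502). Sod2, the mitochondrial superoxide dismutase, had an interaction of 1.05 ± 0.15 SE (edgeR adjusted p = 0.00333). Gch1, whose enzyme makes the cofactor of nitric oxide synthase, fell in WT by 0.83 on the log2 scale and had a CKO response of 0.38 that did not pass its own test (interaction 1.21 ± 0.19 SE, edgeR adjusted p = 0.00598). Nos2, the inducible nitric oxide synthase, reached 13.6 and 11 CPM in WT and 4.7 and 4.87 in CKO, from at most 0.0699 CPM in any untreated library, and its interaction did not pass (edgeR adjusted p = 0.901). Cxcl9, a chemokine of the same receptor as Cxcl10, reached 58.3 and 77.5 CPM in WT and 194 and 174 in CKO. With 3 or fewer counts in each untreated group, no ratio is given for Nos2 or Cxcl9, and the interaction of Cxcl9 did not pass (edgeR adjusted p = 0.553).

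Surface receptors of myeloid activation were among the stronger inductions. Cd40, which receives help from T cells, went from 5.35 and 5.49 CPM to 19.4 and 18.4 in WT and from 0.645 and 0.634 to 11 and 9.33 in CKO. It stayed lower in CKO in both states, so its 15.8-fold rise against 3.48-fold in WT was a smaller gain in CPM (interaction 2.18 ± 0.23 SE, edgeR adjusted p = 0.000726). Fcgr1, the high-affinity Fc receptor, had the same pattern with an interaction of 1.18 ± 0.18 SE (edgeR adjusted p = 0.00545). Among 14 costimulatory and checkpoint genes Cd40 alone passed, and among 6 Fc receptor genes Fcgr1 and Fcgrt did, beside 2.72% of all genes tested. Fcgrt, the receptor that recycles IgG, was a stronger repression (interaction −1.91) and passed only without untreated CKO library 1 (−1.45) or 2 (−2.30).

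Several genes had an induction past its own test in CKO and none in WT. Nr1h3 encodes the oxysterol receptor LXRα. It was at 5.24 and 4.78 CPM in untreated WT and 5.84 and 5.04 in treated WT, and at 16.2 and 12.8 in untreated CKO and 52.6 and 48.6 in treated CKO. The WT response of 0.12 did not pass its own test, and treated CKO rose above every other library (interaction 1.69 ± 0.20 SE, edgeR adjusted p = 0.00123). Klf4, a transcription factor of monocyte differentiation, lay between 5.05 and 6.89 CPM in the 4 WT and 2 untreated CKO libraries and at 20.9 and 21.8 CPM in treated CKO. Its interaction was 1.98 ± 0.18 SE (edgeR adjusted p = 0.000274). Fpr1, the formyl peptide receptor of phagocytes, was at 1.12 and 1.13 CPM in untreated WT, 0.745 and 0.828 in treated WT, 5.5 and 4.33 in untreated CKO, and 19.3 and 13.7 in treated CKO. Plpp3, a lipid phosphatase, rose in CKO from 0.683 and 1.38 CPM to 5.27 and 5.99, towards the WT level of 5.79 to 8.22, and had the largest interaction of the named stronger inductions (2.63 ± 0.37 SE, edgeR adjusted p = 0.00356). The interleukin-1 receptor antagonist gene Il1rn was raised by 1.96 in CKO and had a response of 0.21 in WT; its interaction of 1.76 passed in each fit but that without treated CKO library 2.

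Weaker inductions were led by genes that are near silent in the resting macrophage. Clec9a (chromosome 6, 129408862 to 129424763, plus strand) encodes a receptor for dead cells known from dendritic cells. It was at 0.105 and 0.0682 CPM in untreated WT and 0.304 and 0.202 in untreated CKO, and at 43.7 and 52.7 in WT and 6.47 and 5.5 in CKO given IFN-γ. The treated groups stood apart, with all 4 treated libraries above all untreated ones. Its interaction was the largest of all named genes, −4.48 ± 0.72 SE (edgeR adjusted p = 0.00743), on 5 counts in untreated WT and 15 in untreated CKO. Ocstamp (chromosome 2, 165393760 to 165400405, minus strand), which takes part in the fusion of macrophages and osteoclasts, went from 0.594 and 0.239 CPM to 105 and 97.9 in WT. In CKO it went from 0.759 and 0.519 CPM to 11.4 and 10.6 (interaction −3.80 ± 0.39 SE, edgeR adjusted p = 0.000605). Untreated levels of Ocstamp were under 1 CPM in both genotypes, and treated CKO reached a level far below treated WT.

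Myh10 (chromosome 11, 68691559 to 68816632, plus strand), a non-muscle myosin heavy chain, was at 4.37 and 4.74 CPM in untreated WT and 3.64 and 5.05 in untreated CKO. IFN-γ took it to 55.3 and 56.6 CPM in WT and 7.34 and 6.47 in CKO. The 12.3-fold rise in WT thus stood against 1.58-fold in CKO (interaction −2.96 ± 0.21 SE, edgeR adjusted p = 0.000134). Ctsc, the protease that activates granule serine proteases, was raised from 278 and 311 CPM to 2531 and 2915 in WT and from 306 and 343 to 1043 and 801 in CKO. Its untreated groups overlapped, and the treated ones differed 2.95-fold (interaction −1.70 ± 0.19 SE, edgeR adjusted p = 0.00104). Naaa, a lysosomal amidase, and Itgal, the integrin chain LFA-1 alpha, had interactions of −2.20 ± 0.28 SE and −1.80 ± 0.27 SE (edgeR adjusted p = 0.00215 and 0.00562). Itgal started at 114 and 102 CPM in untreated CKO against 33.4 and 34.4 in untreated WT and ended at like levels, 271 and 220 against 277 and 259. Pdgfc and Mex3b were raised in WT, while their CKO responses of −0.42 and 0.49 did not pass (interactions −3.03 and −2.60). Tnik, a kinase, had an interaction of −3.06, which was lost without untreated WT library 2, untreated CKO library 1 or untreated CKO library 2.

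The same window is shown for Clec9a (chr6:129408612-129408861, plus strand), the largest of the named weaker inductions, where these letters do not occur. That is no contrast between the classes, since 28 of 37 windows of named stronger inductions, Oasl2, C3 and Acod1 among them, and 10 of 11 of weaker inductions hold no match either. Ctsc (chr7:88277835-88278084, plus strand) has a GAS at 236 bases before the start, in capitals.
Clec9a: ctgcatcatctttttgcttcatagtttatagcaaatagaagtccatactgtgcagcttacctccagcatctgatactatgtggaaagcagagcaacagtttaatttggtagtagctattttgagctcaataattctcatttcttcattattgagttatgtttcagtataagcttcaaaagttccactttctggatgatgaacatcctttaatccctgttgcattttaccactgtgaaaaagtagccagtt
Ctsc: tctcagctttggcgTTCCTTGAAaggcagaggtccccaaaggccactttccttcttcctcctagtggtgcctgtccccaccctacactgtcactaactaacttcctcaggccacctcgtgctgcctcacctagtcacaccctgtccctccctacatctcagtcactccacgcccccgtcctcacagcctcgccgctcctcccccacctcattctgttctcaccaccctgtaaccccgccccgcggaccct

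Weaker repression covered pattern receptors, growth factors and sterol enzymes. Cd14, the co-receptor for endotoxin, fell from 88.8 and 84.9 CPM to 14.3 and 16 in WT and from 78.5 and 73.5 to 45.8 and 43.2 in CKO. The untreated groups were within 1.14-fold, and treated CKO kept 2.94-fold more than treated WT (interaction 1.75 ± 0.17 SE, edgeR adjusted p = 0.000392). Igf1 (chromosome 10, 87858265 to 87937042, plus strand), a growth factor of tissue macrophages, fell from 633 and 619 CPM to 148 and 159 in WT and from 572 and 535 to 383 and 367 in CKO. WT lost 4.07-fold and CKO 1.48-fold (interaction 1.46 ± 0.16 SE, edgeR adjusted p = 0.000731). Sgms2, a sphingomyelin synthase, fell from 22.2 and 20 CPM to 5.14 and 5.11 in WT and lay between 28.1 and 33.9 in all 4 CKO libraries. Its interaction was 2.06 ± 0.17 SE (edgeR adjusted p = 0.000203).

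Ednrb and Cx3cr1 were higher in CKO in both states. Ednrb, the endothelin B receptor, was at 98.8 and 114 CPM in untreated WT, 12.9 and 14.6 in treated WT, 344 and 279 in untreated CKO, and 207 and 206 in treated CKO. As a ratio the fall was weaker in CKO (interaction 2.36 ± 0.18 SE, edgeR adjusted p = 0.000134), although the loss in CPM was larger there. Cx3cr1, the fractalkine receptor of monocytes, fell from 2.06 and 2.69 CPM to 0.166 and 0.216 in WT and from 13.3 and 17.6 to 7.64 and 8.85 in CKO. The loss was 12.1-fold in WT and 1.88-fold in CKO (interaction 2.69 ± 0.43 SE, edgeR adjusted p = 0.00676), and it too was larger in CPM in CKO. The WT fold rests on few counts, since treated WT held only 0.166 and 0.216 CPM. The chemokine Ccl9 had an interaction of 0.97 ± 0.17 SE (edgeR adjusted p = 0.0112) with responses of −2.12 in WT and −1.15 in CKO.

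In cholesterol synthesis, all 23 tested genes of the pathway had an interaction above 0, with a median of 0.70, and median responses of −1.52 in WT and −0.73 in CKO. IFN-γ lowered 20 of the 23 in WT and 14 in CKO, and 1 rose in CKO. In untreated cells 20 of the 23 were lower in CKO, and after IFN-γ 1 was, with medians of −0.75 and −0.08 for CKO against WT. Single genes passed less firmly: 5 did, all as weaker repressions, a class that held 0.847% of all genes tested. With only the 8 libraries compared 1 passed, with DESeq2 12, and with the library number as a block 14, or 16 within genotype. Leaving out a library, 16 passed without untreated CKO library 2, and 1 without untreated CKO library 1. The number was 3 without untreated WT library 1 or treated WT library 2, and 0 without untreated WT library 2, treated WT library 1 or either treated CKO library. Sc5d, a late enzyme of the pathway, went from 52.8 and 64.5 CPM to 16.1 and 20 in WT and from 35.2 and 37.1 to 20.5 and 23.3 in CKO. The treated groups of Sc5d came close together while the untreated ones stood apart (interaction 0.98). Hmgcs1, Cyp51, Msmo1 and Hsd17b7, the other 4, had interactions of 0.65, 0.70, 0.69 and 1.13. Each of the 5 passed without untreated CKO library 2, and none passed without either treated CKO library.

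Matrix and vessel growth genes gave 10 of 30 past the test, 6 as weaker repressions and 4 as stronger inductions, beside 2.72% of all genes tested. Besides Igf1, the weaker repressions were Spp1, Mmp12, Timp2, Ctsk and Ctsl, with interactions from 0.89 to 1.96. Spp1, the secreted protein osteopontin, fell from 5320 and 4772 CPM to 2076 and 2124 in WT and was at 2020 and 1584, then 1556 and 2015, in CKO. The treated and untreated CKO libraries of Spp1 overlapped with each other, while the untreated WT libraries were the highest of the 8. The count of matrix genes was 1 without treated CKO library 2, 2 without untreated WT library 1, 3 without treated WT library 2, 4 without treated CKO library 1 and 6 without treated WT library 1. Igf1 alone passed in all 8 fits, Ctsl was lost without treated CKO library 2, and Spp1 was lost without untreated WT library 1, either treated WT library or treated CKO library 2.

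Stronger repression was the smallest class, and 4 of its 32 genes passed in all 8 fits. Slc12a2, a sodium, potassium and chloride carrier, was at 21.2 and 22.8 CPM in untreated WT, 24.4 and 26.7 in treated WT, 27.8 and 25.6 in untreated CKO, and 11.9 and 12.2 in treated CKO. Treated CKO lay below the other 6 libraries, and only there did the response pass its own test (interaction −1.36 ± 0.18 SE, edgeR adjusted p = 0.00213). Ctla2b, a cysteine protease inhibitor, was alike, with an interaction of −1.25 ± 0.19 SE (edgeR adjusted p = 0.00518). Ermard fell from 141 and 106 CPM to 31.8 and 38 in CKO and from 46.9 and 43.1 to 33 and 29.9 in WT, with an interaction of −1.31 ± 0.20 SE that was −1.12 without untreated CKO library 1. In this class untreated CKO library 1, the library with the low mitochondrial share, was the highest of the 8 in 17 of 32 genes, against 3776 of all 16292. In the stronger inductions it was the lowest of the 8 in 70 of 166 genes, against 3793 of all 16292. It lay above untreated CKO library 2 in 23 of the 32 stronger repressions and in 48 of the 67 weaker inductions. The same held for 79 of the 166 stronger inductions, 59 of the 138 weaker repressions and 18 of the 40 reversals, against 8248 of all 16292. The class rule itself favours an extreme untreated CKO level, so all genes are no fair reference for library 1 as highest or lowest. Without that library 22 of the 32 still passed, 119 of the 166 stronger inductions, 48 of the 67 weaker inductions, 88 of the 138 weaker repressions and 34 of the 40 reversals. The part of RNA quality in these differences was not tested.

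Reversed responses joined receptors of innate immunity with genes of lipid and neuropeptide biology. Pilra (chromosome 5, 137821952 to 137836281, minus strand), an inhibitory receptor of myeloid cells, was at 20.6 and 22.5 CPM in untreated WT and 21.3 and 23.2 in untreated CKO. IFN-γ took it to 6.5 and 7.88 CPM in WT and to 48.1 and 42.1 in CKO. The groups overlapped before treatment and parted in opposite directions after it (WT −1.58, CKO 1.02, interaction 2.60 ± 0.20 SE, edgeR adjusted p = 0.000134). Its activating relatives Pilrb1 and Pilrb2 had interactions of 2.21 ± 0.30 SE and 2.06 ± 0.24 SE (edgeR adjusted p = 0.00297 and 0.00111). The 3 Pilr genes are similar in sequence, so their reads may be divided between them.

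Clec4e, the receptor Mincle for mycobacterial glycolipid, fell from 55.7 and 60.9 CPM to 17.7 and 22.9 in WT and rose from 31.9 and 33.8 to 72.6 and 71.7 in CKO. WT was the higher genotype before IFN-γ and CKO after it (interaction 2.65 ± 0.32 SE, edgeR adjusted p = 0.00182). Tlr2, which senses bacterial lipoproteins, fell from 43.9 and 47.7 CPM to 22.8 and 23.7 in WT and rose from 38.9 and 32 to 58.8 and 51.1 in CKO. Each treated WT library lay below, and each treated CKO library above, all untreated libraries (interaction 1.61 ± 0.17 SE, edgeR adjusted p = 0.000759). Trem3, Cd300ld, Gas7 and Dusp1 moved in the same directions, with interactions of 2.34, 1.87, 1.68 and 1.43 and edgeR adjusted p of 0.00364, 0.000241, 0.000392 and 0.00334. Trem3 and Cd300ld are myeloid surface receptors, Gas7 acts on the actin skeleton, and Dusp1 switches off MAP kinases. With Cd14 and Clec4d as weaker repressions and Casp1 and Tlr3 as stronger inductions, 6 of 29 genes of pattern receptors and inflammasomes passed, all with the higher response in CKO. That direction held for 2.07% of all genes tested. Clec4d, Casp1 and Tlr3 passed without either untreated CKO library and were lost without either treated CKO library, untreated WT library 1 or treated WT library 1. Casp1 was also lost without untreated WT library 2.

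The opposite turn, up in WT and down in CKO, was seen in Ramp1, Abca9 and Cenpa. Ramp1 (chromosome 1, 91179822 to 91225196, plus strand), a subunit of the receptor for the neuropeptide CGRP, rose from 1.96 and 2.11 CPM to 4.35 and 4.82 in WT. In CKO it fell from 15.9 and 8.74 CPM to 3.42 and 3.27 (interaction −3.04 ± 0.39 SE, edgeR adjusted p = 0.00213). The untreated CKO libraries of Ramp1 stood above the other 6 and differed from each other. Abca9 (chromosome 11, 110100749 to 110168196, minus strand), a lipid transporter, rose from 1.19 and 1.36 CPM to 4.35 and 4.46 in WT and fell from 89.3 and 57.1 to 32.8 and 28.5 in CKO. CKO held more Abca9 than WT in each state, 57.1-fold before IFN-γ and 6.96-fold after it (interaction −3.04 ± 0.34 SE, edgeR adjusted p = 0.00109). Cenpa, the centromeric histone, changed by 0.37 in WT and −0.59 in CKO (edgeR adjusted p of the interaction = 0.00546).

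**Figure D4:**
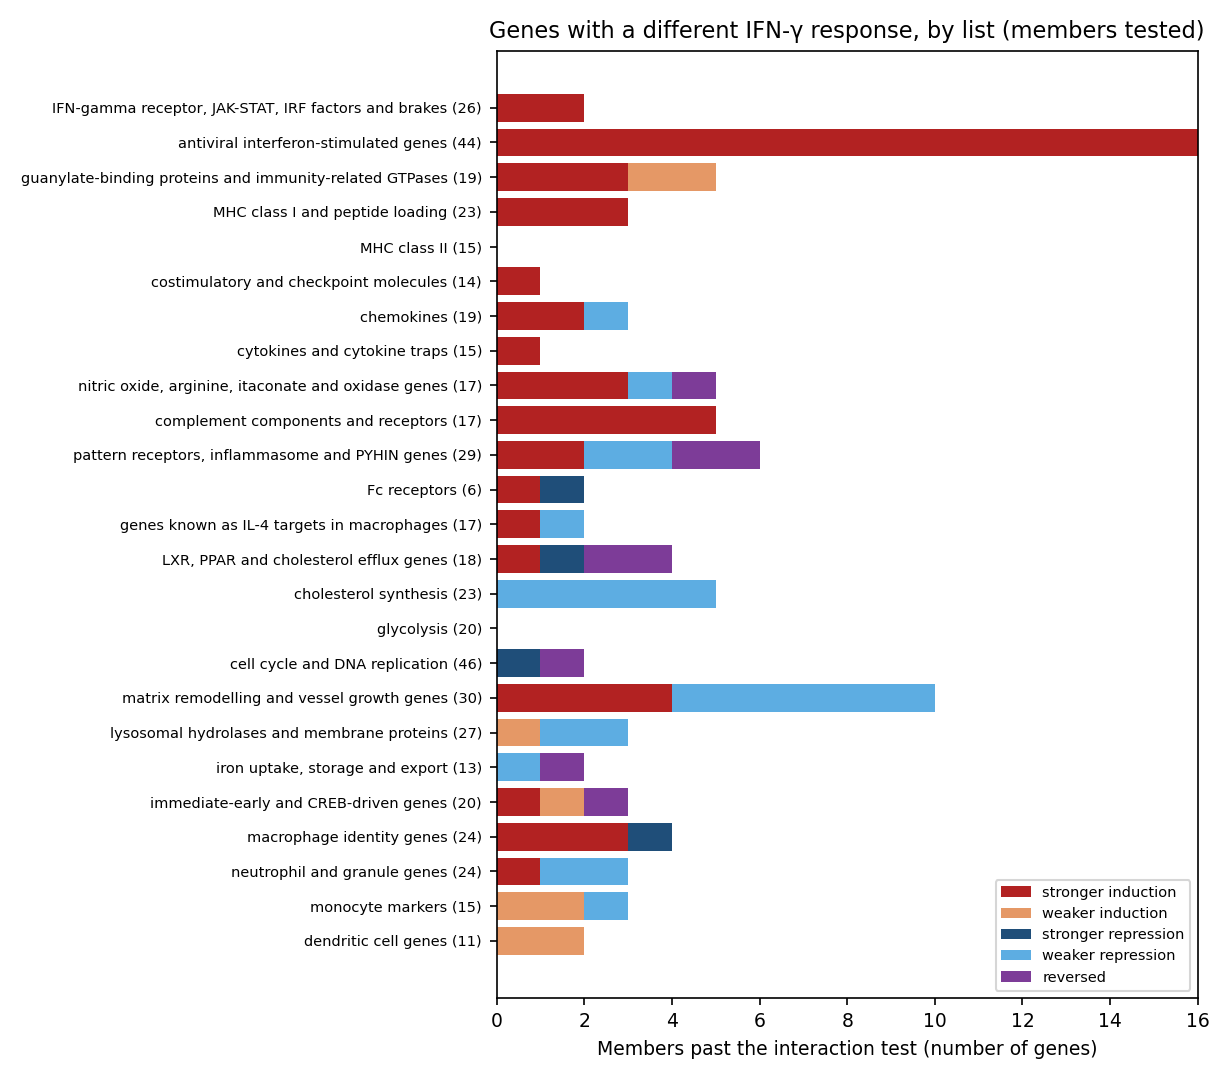
Number of genes past the interaction test in each list with at least 5 members tested, stacked by class, with the number of members tested in parentheses. Antiviral genes (16 of 44) show stronger induction alone and cholesterol synthesis (5 of 23) weaker repression alone; MHC class II and glycolysis show none.

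Other lists varied, beside 2.72% of all genes tested. Macrophage identity had 4 of 24 past the test, immediate-early genes 3 of 20, lysosomal genes 3 of 27 and iron handling 2 of 13. With only the 8 libraries compared these were 2, 1, 2 and 0. None of 20 glycolysis genes passed, but 3 did without untreated CKO library 2. Of 46 cell cycle genes Cenpa and Ccnb2, the latter a mitotic cyclin, were lower. Ccnb2 passed only without untreated CKO library 1 or 2. Without untreated CKO library 1, 9 cell cycle genes were lower, and without untreated CKO library 2, 4 were higher and 2 lower. Among 18 genes of lipid handling Nr1h3 and Fabp4 were higher and Abca9 and Cd36 lower. Fabp4, a fatty acid carrier, passed only without untreated CKO library 1 or 2, and Cd36, a scavenger receptor, only without treated WT library 1 or untreated CKO library 2. Chemokines had 3 of 19 past the test, all higher in CKO, and a median interaction of 1.11. Ccl9 passed in all 8 fits, Ccl4 only without untreated WT library 1, treated WT library 2 or untreated CKO library 2, and Cxcl10 as given above. The lists were drawn up from textbook knowledge with earlier results of these data known, so their shares describe them and are no test.

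**Figure D5:**
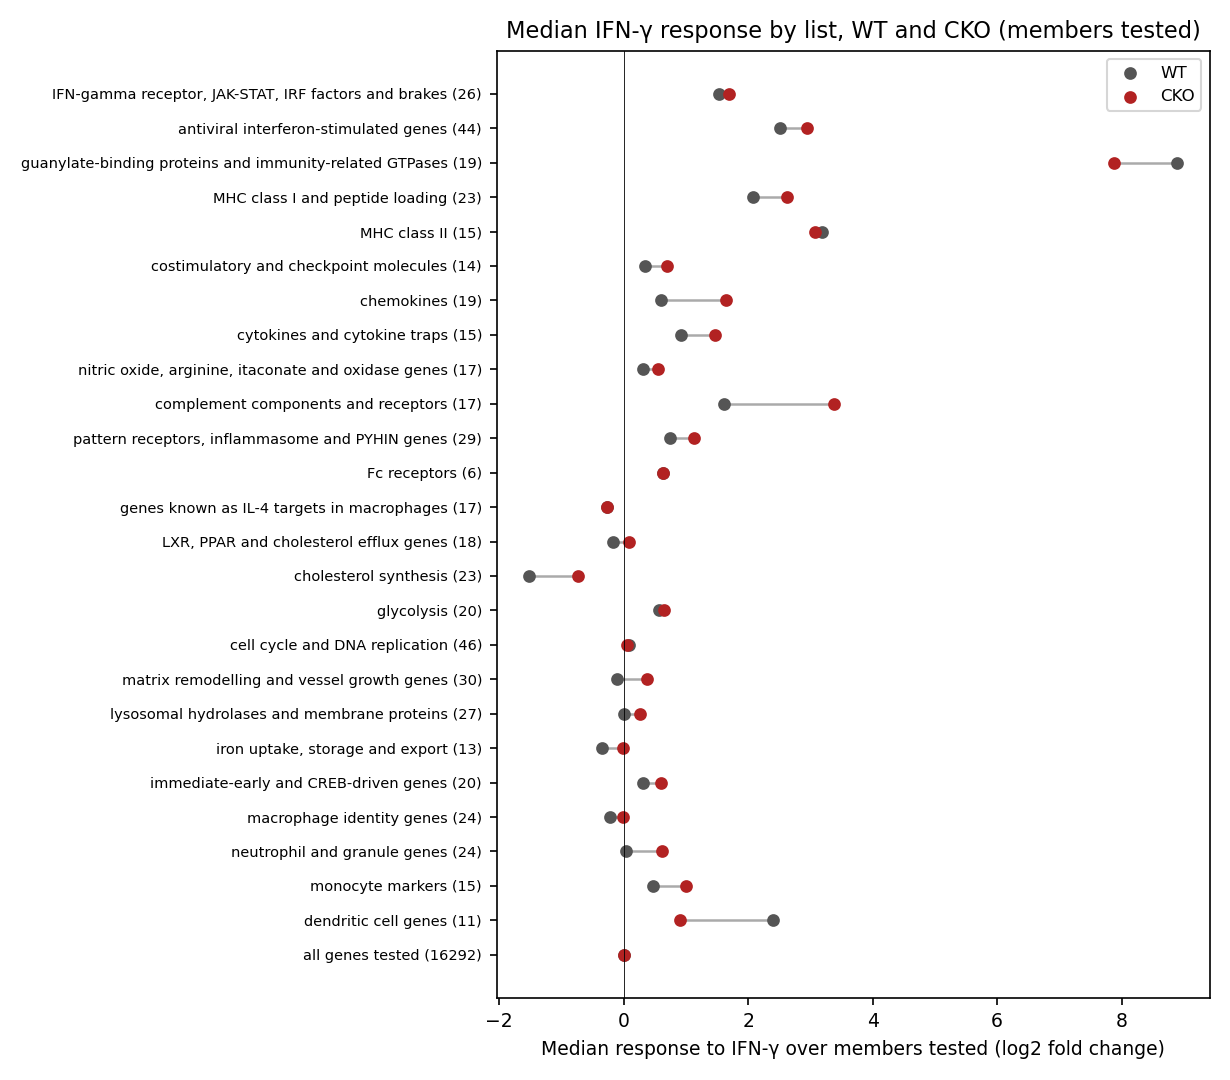
Median log2 response to IFN-γ over the tested members of each list in WT and CKO. The gap between the points is wide for complement, chemokines and dendritic cell genes, the cholesterol synthesis point of CKO lies nearer 0, and all genes tested lie at 0.00 in both.

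Markers of other marrow cells moved with genotype and treatment. The 24 tested neutrophil and granule genes summed to 275 and 270 CPM in untreated WT, 165 and 183 in treated WT, 1074 and 796 in untreated CKO, and 692 and 661 in treated CKO. The sum was higher in all CKO than in all WT libraries and fell with IFN-γ in both. Single members went otherwise: their median response was 0.04 in WT and 0.61 in CKO, and in CKO 9 rose and 1 fell. Of the 24, 3 passed the interaction test: Fpr1, Padi4, which was lost without treated WT library 2, and Trem1, which passed only without either untreated CKO library. The 11 tested dendritic cell genes summed to 135 and 153 CPM in untreated WT, 392 and 482 in treated WT, 163 and 158 in untreated CKO, and 294 and 298 in treated CKO. Of the 11, Clec9a and Naaa, described above, passed the interaction test, and 3 had an interaction above 0. Among all genes tested 2.72% passed. The 15 monocyte genes, which include Itgal, Ccr2 and Cx3cr1, summed to 572 to 684 CPM in WT and 835 to 948 in CKO. Of 8 genes listed for erythroid cells 1 was tested, at 1.53 CPM or less in the 8 libraries, and none of 8 stromal genes reached the count needed. The 2 tested T cell genes summed to 219 to 260 CPM in untreated and 79.3 to 88.4 in treated libraries. The 1 tested natural killer cell gene was at 0.0699 and 0.136 CPM in untreated WT and 0.19 and 0.144 in untreated CKO. It rose to 40.8 and 57.6 CPM in treated WT and 14.9 and 10.3 in treated CKO, so its level followed the treatment. Its interaction did not pass in the main fit, but did, as lower, with DESeq2, with no filter on low counts and with the block within genotype. The 3 tested B cell genes summed to 9.48 to 16.6 CPM, and the 2 mast cell and basophil genes to under 1 CPM. Fewer cells of a type and less RNA per cell cannot be told apart in bulk RNA, and the part of other cell types in these results was not tested.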

How the data were processed

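RNA-seq libraries were made with the Illumina NextSeq RNA Exome kit, per the labels' protocols. The authors deposited raw counts per gene, whole numbers with a different total per library, and per the submitters' processing notes named HTSeq 0.6.1 and TopHat2 2.0.13, besides CASAVA 1.8.2 and Picard 1.97, without their order. The notes name the builds GRCh38 and mm10 without their roles, and the identifiers are of mouse genes. Neither the gene annotation's release nor whether counting used strand is stated, so overlapping genes are uncertain.

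Of 48440 genes 22932 had no count, and filterByExpr kept 16292. edgeR 4.0.16 (R 4.3.3) fitted 6 group means to all 12 libraries with TMM scaling and robust quasi-likelihood dispersions, leaving 6 residual degrees of freedom. All groups share a gene's estimate of the spread, but the 2 libraries of a group did not differ equally. Against counting noise, their chi-square per gene was 112 in untreated CKO, 51.5 in treated WT, 44.7 in untreated WT and 6.25 in treated CKO. The p-values take no account of this inequality. The interaction, each response and each genotype difference were tested with the quasi-likelihood F test and Benjamini-Hochberg adjustment over all genes at 0.05. The SE is the size of the log2 value over the square root of F. The edgeR step was run on simulated counts in which all groups shared a gene's spread, and the class rule on made-up responses. Neither can show how the unequal spread affects these results. CPM are TMM-scaled. Positions came from GENCODE M21, printed only where identifier and version matched (40606 of 48440), and promoters from RefSeq on GRCm38.p6. Promoters of 9859 of the 16276 symbols tested were in that table, in 12556 windows.

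Named genes were those past the test at 8 CPM or more in a group: the 10 largest interactions of each class, up to 4 of each of 31 lists by adjusted p, and 14 fixed genes. Isg15, Oas1g, Tgtp1, Hsd17b7, Mmp12, Timp2, Ctsk, Clec4d and Tlr3 were named after their values were seen. A result on 1 named gene is not reported here. The members and lists were chosen with earlier results of these data known. Alternatives were DESeq2 1.42.0, DESeq2 size factors, no filter, a mean of 5 CPM, the 8 libraries alone, the library number as a block, a fold of 2, other class scales and leaving out each library.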

Additional observations from a re-analysis of the deposited data

Results flagged for a closer look

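The response to IFN-γ differed between the genotypes, by the test of the difference itself, in 443 genes: 337 with the higher and 106 with the lower response in CKO. At an unadjusted p under 0.05 there were 2127. Values of the named genes among them are given above. Within a group of 2 libraries, neither can be tested as standing apart.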

How the results depend on the processing

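All 443 interactions kept their sign in each fit in which they were tested. Those of Lyz2, Nos2, Ifngr1 and Ifngr2, which did not pass, changed sign in 1 to 3 fits without a library. Leaving out 1 library gave 137 to 940 calls, 104 to 649 higher and 33 to 291 lower. By class these fits gave 55 to 378 stronger inductions, 25 to 133 weaker inductions, 5 to 139 stronger repressions, 38 to 212 weaker repressions, 14 to 76 reversals and 0 to 2 genes with neither response past its test. In them 35 to 111 listed genes passed, against 86, and 55 to 95 of the 98 named calls. The lone library of a reduced group is assumed to vary like the others. Passing in all 8 fits as well, an alternative added after seeing the data, left 112 calls (82 higher, 30 lower): 44, 21, 4 and 23 in the first 4 classes and 20 reversed.

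DESeq2 called 664 genes, 184 of them lower, with 108 weaker inductions, 67 stronger and 208 weaker repressions and 5 with neither response called. No filter on low counts gave 1019 calls (704 higher, 315 lower), in classes 361, 164, 140 and 275, 65 reversed and 14 with neither, and 166 listed genes. The 8 libraries alone gave 289 (221 and 68), with 16 stronger and 84 weaker repressions, and list counts such as 11 antiviral, 6 matrix, 3 pattern receptor, 3 microbicidal and 1 MHC class I gene. A fold of at least 2 left 265 (198 and 67), in classes 101 stronger inductions, 17 stronger and 73 weaker repressions. By signs and sizes alone 173 genes were reversed, with 17 stronger and 89 weaker repressions.

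The library number as a replicate block gave 732 calls (519 and 213), in classes 252, 118, 83 and 214, with 65 reversed. The block within genotype gave 1080 (755 and 325), in classes 377, 166, 139 and 303, 93 reversed, 2 with neither and 155 listed genes. The labels do not say that a number pairs libraries. Deviations of same-numbered untreated and treated libraries correlated over genes at 0.43 in WT and 0.16 in CKO. DESeq2 size factors (424 calls) and a mean of 5 CPM (419) stayed within 1.5 times. The causes of these shifts were not tested. Genes under about 1 CPM in a group, such as Clec9a when untreated or Cx3cr1 in treated WT, rest on few counts.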
